A study of Mus musculus with 45 samples.

Results

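Hippocampal RNA of 12-month-old Apoe(fl/fl) 5xFAD Csf1r-cre mice (5 samples) was compared with that of 12-month-old Apoe(fl/fl) 5xFAD mice (7 samples). These 12 samples, of 45 in the series, were chosen by their titles. Both groups are on C57BL/6, carry floxed Apoe on both chromosomes, and carry the 5xFAD transgenes, which include mutant human APP and are driven by the Thy1 promoter in neurons. The groups differ by Csf1r-cre, which per the series' design is hemizygous and removes Apoe from the cells that express it, microglia and other myeloid cells. The other 33 samples come from 4-month-old mice of the same 4 genotypes (8 control, 6 Csf1r-cre, 5 5xFAD and 4 5xFAD Csf1r-cre) and from 12-month-old control (3) and Csf1r-cre (7) mice without 5xFAD. The strain entry of the 7 12-month 5xFAD samples also names Csf1r-cre, against their titles. Sex is not stated, and the labels do not tie samples to animals, so p-values reflect how these samples vary, which may be technical.

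Apoe encodes apolipoprotein E, the main carrier of cholesterol and phospholipid between cells of the brain. Astrocytes make most of it in the healthy brain, and microglia raise it when they gather around amyloid plaques and take on the plaque-associated state, in which Trem2, a lipid-sensing receptor, is needed. Common human variants of APOE are the strongest inherited risk factor for late Alzheimer's disease.

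Levels are given in TPM, a transcript abundance scaled for gene length and library total. In the 12 libraries a single read per kilobase of gene, estimated from the low values, equalled 0.0573 to 0.0875 TPM. Between 13493 and 14628 genes reached 1 TPM, and each library's median correlation with the other libraries was 0.957 to 0.975. Differences are log2 fold changes on the log2(TPM + 0.5) scale, 5xFAD Csf1r-cre minus 5xFAD, which understate the change of low genes. They were tested with limma over 18659 genes, two-sided, with Benjamini-Hochberg adjusted p-values and a threshold of 0.05. A gene is said to rise or fall only where it passed. The median of all genes lay at 0.058, and 59.4% of genes had a difference above 0.

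With Csf1r-cre, 10 genes rose (0.0536% of those tested) and 1 fell (0.00536%). None of the 11 is known as a gene of lipid transport or of the microglial response to amyloid. Of the 11, 7 are pseudogenes or gene copies whose closest protein-coding relative lies on chromosome 17, and the other 4 lie on chromosome 17 themselves. The gene that fell was Atp6v0c, the proteolipid subunit of the vacuolar proton pump that acidifies lysosomes and synaptic vesicles. Its processed pseudogene Atp6v0c-ps2 rose. At an unadjusted p under 0.05 there were 423 higher (2.27%) and 192 lower genes (1.03%), together 3.3%. That share depends on the samples that set the spread. In this limma fit over all 45 samples 615 genes had such a p, and on the 12 samples alone 1125 did. Without 5xFAD Csf1r-cre replicate 3, 18 genes were higher and 9 of the 11 still passed.

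Several of the pairs differ by few bases, and the stretches here show how little separates a read of the copy from one of the chromosome 17 gene. They are written 5′ to 3′ from GENCODE transcripts of the mm10 build, and capitals mark the bases that differ within a pair. Atp6v0c-ps2 is shown at chr6:37806156-37806236 (plus strand), and differs from the Atp6v0c coding sequence at 1 of 465 aligned bases. Gm9825 is shown at chr6:7983084-7983253 (minus strand), and differs from Rnps1 at 5 of 843 aligned bases, 2 of them in this stretch. Gm14292 is shown at chr2:179177633-179177737 (plus strand), and differs from Wtap at 3 of 456 aligned bases, 2 of them in this stretch.
Atp6v0c-ps2: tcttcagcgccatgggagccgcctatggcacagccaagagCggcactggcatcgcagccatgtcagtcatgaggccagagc
Atp6v0c: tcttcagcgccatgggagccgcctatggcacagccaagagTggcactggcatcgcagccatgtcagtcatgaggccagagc
Gm9825: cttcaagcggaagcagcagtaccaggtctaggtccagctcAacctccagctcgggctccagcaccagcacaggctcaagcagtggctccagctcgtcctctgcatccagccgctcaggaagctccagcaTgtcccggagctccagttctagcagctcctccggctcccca
Rnps1: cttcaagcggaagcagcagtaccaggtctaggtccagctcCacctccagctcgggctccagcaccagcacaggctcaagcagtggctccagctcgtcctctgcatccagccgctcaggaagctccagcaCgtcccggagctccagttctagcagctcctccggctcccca
Gm14292: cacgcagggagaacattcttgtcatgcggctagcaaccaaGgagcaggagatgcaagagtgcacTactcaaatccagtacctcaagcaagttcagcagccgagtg
Wtap: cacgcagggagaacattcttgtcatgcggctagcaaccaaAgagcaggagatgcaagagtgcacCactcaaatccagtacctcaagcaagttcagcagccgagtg

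The targeted gene comes first. Apoe (ENSMUSG00000002985, chr7:19696109-19699188) was 4787, 4895, 3805, 2793, 3353, 3773 and 4444 TPM in the 7 5xFAD samples. In the 5 5xFAD Csf1r-cre samples it was 3539, 4282, 3600, 3962 and 4621 TPM. The ranges overlapped throughout, and the lowest value belonged to a sample without Csf1r-cre. Apoe averaged 4001 ± 458 TPM (SD, n = 5) in mice carrying Csf1r-cre, and 3979 ± 773 TPM (SD, n = 7) in the others. The log2 difference of 0.025 had an exact two-sided permutation p of 0.874, where the smallest p this design allows is 0.00126. Its 95% interval from the limma model ran from -0.39 to 0.44, or from 0.761 to 1.36 times the level without Csf1r-cre. With median-of-ratios scaling the difference was -0.065. In bulk tissue, fewer cells of a type and less RNA per cell cannot be told apart. The values cover the whole gene and all cell types of the tissue. Levels by cell type or of the floxed part were not tested.

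App, the mouse gene of the amyloid precursor, was 639 ± 226 TPM against 518 ± 133 TPM. Thy1, a neuronal surface protein whose promoter drives the transgenes, was 2354 ± 813 TPM against 1900 ± 372 TPM, and its log2 difference of 0.24 had a 95% interval of -0.27 to 0.75. Neither passed the test (limma adjusted p = 1 for both). Whether reads of the human transgenes were counted to App is not given in the sources used here.

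**Figure D1:**
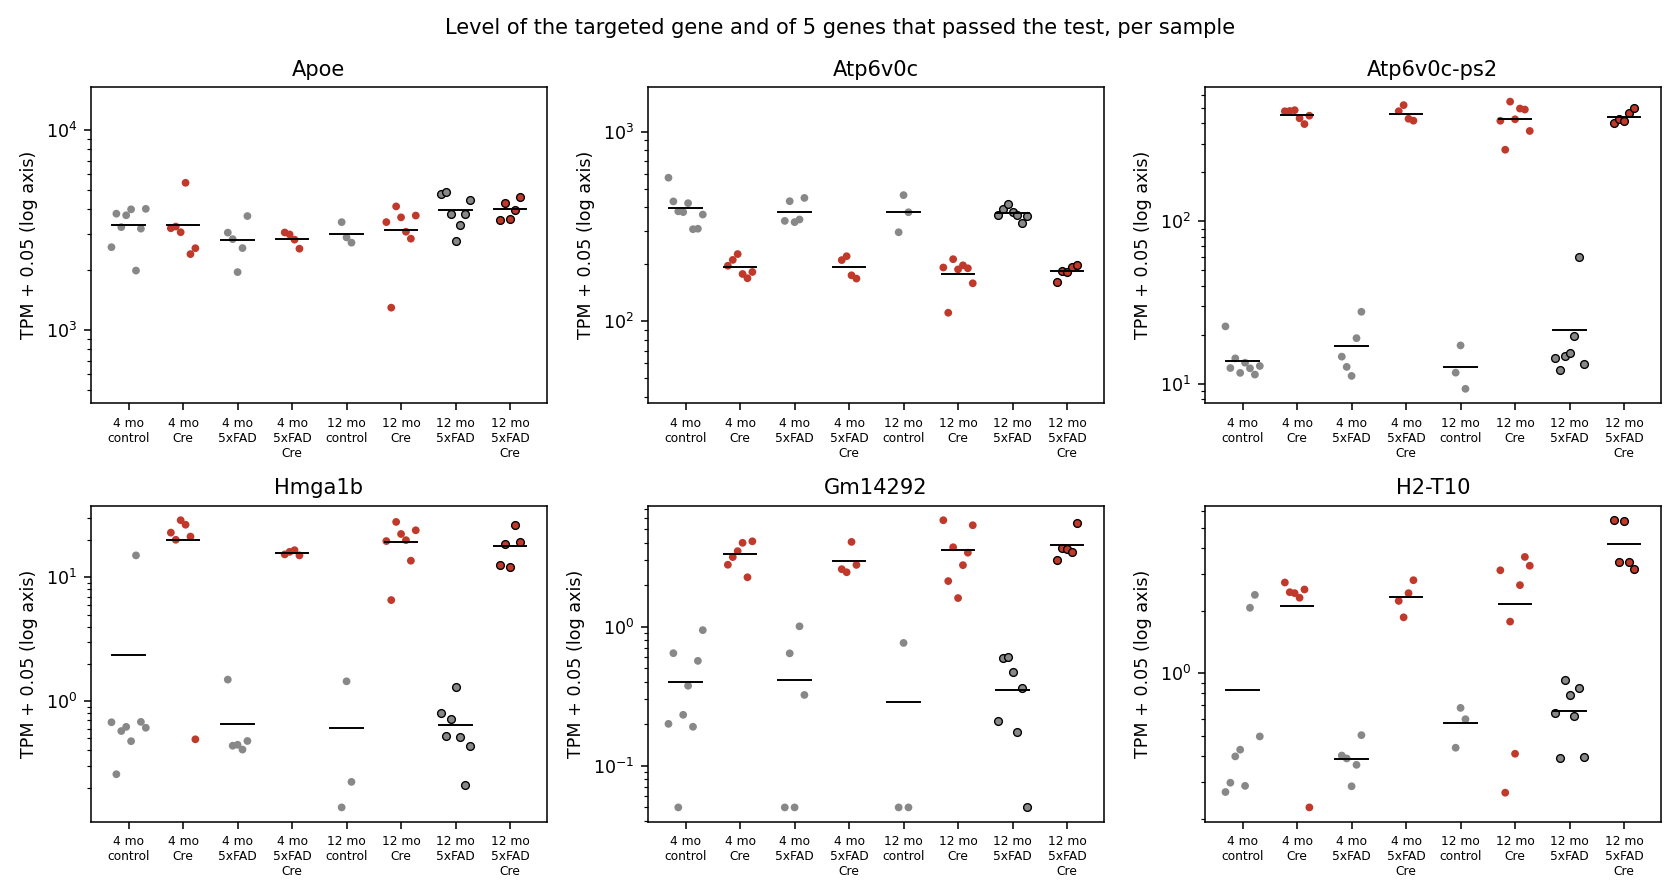
Levels in each of the 45 samples, by genotype and age, for Apoe and 5 genes that passed the test. Each point is 1 sample (TPM plus 0.05, log axis), red with and grey without Csf1r-cre, the line is the group mean, and the 12 samples compared are outlined in black. Apoe overlaps between the outlined groups, while Atp6v0c falls from 330 to 414 TPM without Csf1r-cre to 160 to 197 TPM with it and the other 4 genes rise.

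Atp6v0c-ps2 (ENSMUSG00000080242, chromosome 6, a processed pseudogene, which is a reverse-transcribed copy of an mRNA) was the clearest difference. It was 14.4, 12.1, 14.8, 15.3, 19.6, 59.9 and 13.1 TPM in the 5xFAD samples. With Csf1r-cre it was 401, 423, 411, 462 and 497 TPM. The groups lay far apart, and 1 sample without Csf1r-cre, replicate 6, stood above its own group. The log2 fold change was 4.56 ± 0.24 (SE, limma adjusted p = 1.1e-17). The intact gene Atp6v0c (ENSMUSG00000024121, chr17:24163866-24169702) was 365, 393, 414, 376, 365, 330 and 357 TPM without and 160, 185, 181, 193 and 197 TPM with Csf1r-cre. Every sample with Csf1r-cre was below every sample without it, by a log2 fold change of -1.02 ± 0.14 (SE, limma adjusted p = 1.55e-05).

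Both genes can draw on each other's reads, so their single values are uncertain and their sum was also taken, with each TPM weighted by gene length. The pseudogene took 0.810% ± 0.724 (SD, n = 7) of the pair's signal without (0.539% leaving out replicate 6) and 24.7% ± 0.921 (SD, n = 5) with Csf1r-cre. The summed signal with Csf1r-cre was 0.651 ± 0.052 (SD, n = 5) of the 5xFAD mean, between 0.574 and 0.71 in single samples, against 0.902 to 1.11 without. The sum was therefore lower in all 5 samples with Csf1r-cre than in any of the 7 without. How reads that match both genes were counted is not given, so the sum may also lack reads.

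Rps2-ps10 (ENSMUSG00000091957, chromosome 18), a transcribed copy of the ribosomal protein gene Rps2, had the largest log2 fold change among the 11, 6.95 ± 0.65 (SE, limma adjusted p = 1.87e-09). Its 5xFAD samples lay between 1.07 and 3.18 TPM with a median of 2.38 TPM. With Csf1r-cre it was 416, 266, 476, 247 and 307 TPM. Of the length-weighted signal of Rps2 and this copy, 0.0763% ± 0.0204 (SD, n = 7) fell on the copy without and 14.3% ± 0.689 (SD, n = 5) with Csf1r-cre. A second copy, Rps2-ps13 on chromosome X, was at 0.0947 to 0.479 TPM without and 1.57 to 3.04 TPM with Csf1r-cre (log2 fold change 1.95, limma adjusted p = 0.000157). Rps2 itself, a protein of the small ribosomal subunit, was 1075 ± 262 TPM against 1581 ± 407 TPM with overlapping groups (log2 fold change -0.55, unadjusted p = 0.013, adjusted p = 1).

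Hmga1b (ENSMUSG00000078249, chromosome 11), an intact copy of the gene for the chromatin protein HMGA1, was 0.161 to 1.26 TPM in the 5xFAD samples with a median of 0.473 TPM. With Csf1r-cre it was 12.4, 18.6, 12.0, 26.5 and 19.1 TPM, all above the first group. The log2 fold change was 4.06 ± 0.59 (SE, limma adjusted p = 6.09e-05). Its share of the length-weighted signal of Hmga1 and Hmga1b went from 0.749% ± 0.555 (SD, n = 7) to 23.5% ± 3.29 (SD, n = 5). Hmga1 on chromosome 17 was 43.7 ± 11.3 TPM against 65.1 ± 26.1 TPM, with overlapping groups and a 95% interval of the log2 difference from -1.05 to 0.018.

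The other copies that rose were lower in level. Gm9825, a copy of Rnps1, whose protein sits in the exon junction complex, was 0.298 to 1.00 TPM without and 12.1, 12.0, 9.13, 14.1 and 11.9 TPM with Csf1r-cre (log2 fold change 3.66 ± 0.41, SE, limma adjusted p = 2.34e-07). Gm14292, a copy of Wtap, a subunit of the m6A RNA methyltransferase, was 0 to 0.551 TPM without and 2.98, 3.64, 3.56, 3.37 and 5.47 TPM with Csf1r-cre (log2 fold change 2.45 ± 0.28, SE, limma adjusted p = 4.3e-07). Gm11361, annotated as protein-coding and closest to the ribosomal protein gene Rps18, was 2.04 to 4.81 TPM without and 12.2, 14.1, 18.6, 11.5 and 11.9 TPM with Csf1r-cre (log2 fold change 1.77 ± 0.35, SE, limma adjusted p = 0.0196). In each of these 3 the groups did not overlap. Gm11361 did not pass with median-of-ratios scaling (adjusted p = 0.22), nor without 5xFAD replicate 2 (0.0718), 5xFAD Csf1r-cre replicate 2 (0.0744) or replicate 3 (0.0634).

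Among genes of chromosome 17, 3 rose. H2-T10 (chr17:36115876-36121465), a class I histocompatibility gene annotated as a polymorphic pseudogene, was 0.339 to 0.881 TPM without and 5.40, 3.40, 5.36, 3.37 and 3.11 TPM with Csf1r-cre (log2 fold change 2.05 ± 0.38, SE, limma adjusted p = 0.00596). Prss41 (chr17:23836785-23844172), a serine protease gene, was listed at 0 in 5 of the 7 samples without Csf1r-cre and reached 0.344 TPM in replicate 6, while with Csf1r-cre it was 2.04, 0.427, 1.38, 0.939 and 0.770 TPM (log2 fold change 1.42 ± 0.25, SE, limma adjusted p = 0.00332). Its mean without Csf1r-cre was 0.0791 TPM, or 0.0351 TPM without replicate 6. Over all 45 samples, Prss41 without Csf1r-cre reached 0.5 TPM only in 4-month control replicate 7, at 0.639 TPM. It thus met the filter, 0.5 TPM in at least 3 samples, only through samples with Csf1r-cre. Rnf151 (chr17:24715839-24718057), a ring finger protein gene that ends close to Rps2, was at 0 in all 5xFAD samples but replicate 5, at 0.0482 TPM, and was 0.0571, 0.221, 0.594, 0.776 and 1.23 TPM with Csf1r-cre (log2 fold change 0.97 ± 0.20, SE, limma adjusted p = 0.0335). Rnf151 passed in only 10 of 25 fits, with an adjusted p of up to 0.739 on the 12 samples alone. Its lowest sample with Csf1r-cre was close to the highest without. Among the 12 samples, Rnf151 reached the filter's 0.5 TPM only with Csf1r-cre.

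H2-T22, the coding gene closest to H2-T10 at 96.5% identity, did not pass. It was 26.3, 24.3, 28.1, 30.1, 29.1, 28.7 and 22.7 TPM without and 17.2, 12.2, 11.6, 15.98 and 11.9 TPM with Csf1r-cre. The groups did not overlap, which held for 24 genes higher (0.129%) and 23 lower (0.123%) of all tested. The log2 fold change was -0.96 ± 0.21 (SE, limma adjusted p = 0.0672), and the adjusted p was 0.00689 on the 12 samples alone. H2-T23, the neighbouring gene of the Qa-1 antigen, was 26.4 ± 10.4 TPM against 47.4 ± 8.46 TPM (log2 fold change -0.91, unadjusted p = 0.0108, adjusted p = 1).

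The same genes differed with Csf1r-cre in the libraries outside the 12. Those libraries give other group means, but they are not separate from the calls. The filter and the spread of the main limma fit were taken over all 45 samples. In the 33 other samples, over the 3 Csf1r-cre differences (4 months, 4 months with 5xFAD, and 12 months without), 17 genes passed the test (0.0911% of those tested), 15 higher (0.0804%) and 2 lower (0.0107%). These are called Csf1r-cre linked genes from here on. All 11 genes called in the 12-month 5xFAD comparison were among these 17, and all 17 had the same sign in it. Fitted on the 12 samples alone, 12 genes passed, 9 of them among the 11 and 10 among the 17. In 15 of the 17 the 2 groups of the 12 samples did not overlap. Rps2-ps10 had a log2 fold change of 6.94 in the 33 samples against 6.95 here, Atp6v0c-ps2 4.94 against 4.56, Hmga1b 3.87 against 4.06, and Atp6v0c -1.02 against -1.02. H2-T10 was further apart, at 1.30 against 2.05, and did not pass in any of the 3 differences alone (limma adjusted p = 0.366, 0.486 and 0.995).

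Of the 17, 6 did not pass here. AC154457.3, on chromosome 17 and closest to the mitochondrial ribosomal gene Mrps10, was 1.21 to 3.22 TPM with Csf1r-cre and 0 to 0.579 TPM without (log2 fold change 2.24, limma adjusted p = 0.0644). Gm13443, a copy of the glyoxalase gene Glo1, was 3.15 to 5.27 TPM against 1.06 to 2.41 TPM (log2 fold change 1.05, limma adjusted p = 0.776). Gm6311, another copy of Rps2, was 0.294 to 0.788 TPM against 0 to 0.190 TPM (log2 fold change 0.80, limma adjusted p = 0.303). Gtpbp2, a GTPase of ribosome rescue on chromosome 17, lay at 16.9 to 26.7 TPM with and 29.0 to 40.4 TPM without (log2 fold change -0.48, limma adjusted p = 1). The groups overlapped for the remaining Gm5819, closest to Unkl (log2 fold change 0.70, adjusted p = 1), and D330041H03Rik, a chromosome 17 transcript (0.81, adjusted p = 0.398).

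**Figure D2:**
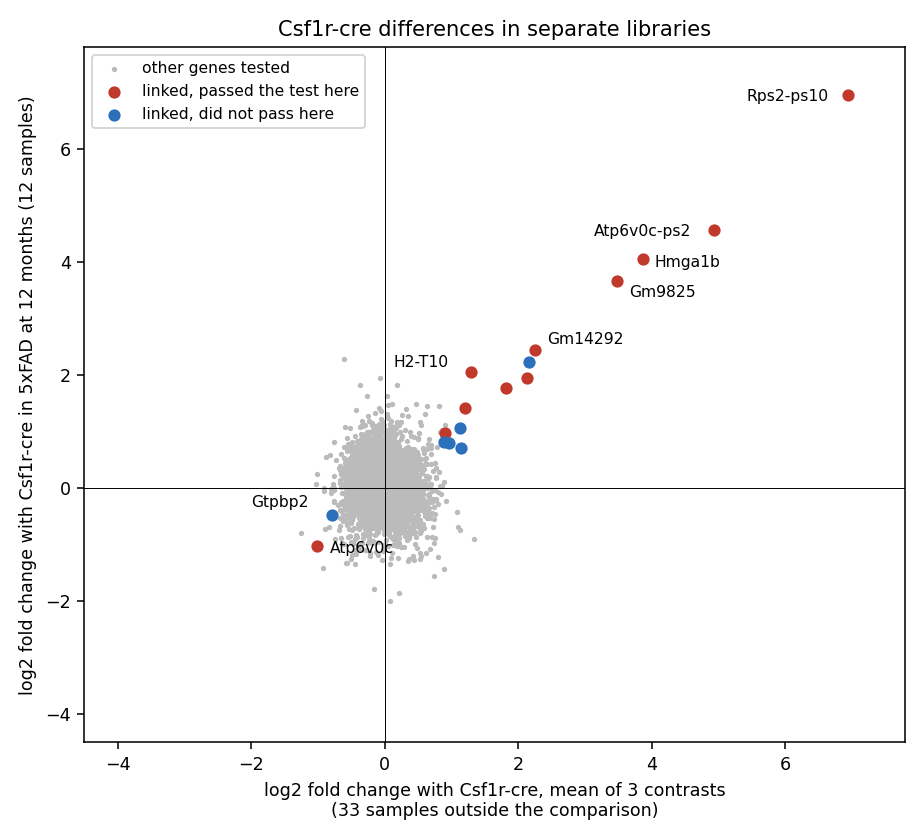
Log2 fold change with Csf1r-cre for each of the 18659 genes in the 33 samples outside the comparison (horizontal, mean of 3 differences) and in the 12 samples compared (vertical). The 17 genes that passed in the 33 samples are coloured, red for the 11 that also passed in the 12, and all 17 lie in the quadrant of equal sign.

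Levels of Atp6v0c-ps2 and Atp6v0c followed the titles rather than the strain entries. Over all 45 samples, Atp6v0c-ps2 was 275 to 544 TPM wherever the title names Csf1r-cre and 9.24 to 59.9 TPM wherever it does not, and Atp6v0c was 111 to 226 TPM and 295 to 572 TPM. The 7 12-month 5xFAD samples, whose strain entry names Csf1r-cre, were in the second range of both. Other linked genes were less even outside the comparison. One Csf1r-cre sample of 4 months, with Atp6v0c-ps2 at 445 TPM, had Rps2-ps10 at 1.76 TPM, Gm9825 at 0.274 TPM, Hmga1b at 0.442 TPM and H2-T10 at 0.176 TPM. One control sample of that age had Hmga1b at 15.01 TPM and H2-T10 at 2.01 TPM, and another had H2-T10 at 2.33 TPM. H2-T10 was also low, at 0.216 and 0.360 TPM, in 2 Csf1r-cre samples of 12 months.

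In 5xFAD at 4 months, one of the differences that chose the 17 linked genes, 10 of them passed, of 11 genes called in all (0.059%). Without 5xFAD, Csf1r-cre gave 9 genes higher (0.0482%) and 4 lower (0.0214%), together 0.0697%, at 12 months, and 8 higher (0.0429%) and 1 lower at 4 months. The log2 fold changes at 4 and 12 months were 7.51 and 6.95 for Rps2-ps10, 4.78 and 4.56 for Atp6v0c-ps2, 3.96 and 4.06 for Hmga1b, and -0.97 and -1.02 for Atp6v0c. H2-T10 was at 1.72 and 2.05. The difference between ages passed for 0 genes with limma, and 238 genes (1.28%) had an unadjusted p under 0.05. The difference between the Csf1r-cre effect with and without 5xFAD at 12 months passed for 0 genes too, and 2156 genes (11.6%) had an unadjusted p under 0.05. Without 5xFAD Csf1r-cre replicate 3 it passed for 5 genes, and without 5xFAD replicate 7 for 1. This difference also rests on the 12-month samples without 5xFAD. Among those, Csf1r-cre replicate 2 had 10590 genes at 1 TPM and a median correlation of 0.886 with the other libraries. Control replicate 2 had a median correlation of 0.939, against 0.957 to 0.975 in the 12 samples compared. Both libraries also enter the spread of the main comparison. Leaving both out took its genes with an unadjusted p under 0.05 from 615 to 882, and its calls from 11 to 12. The smallest unadjusted p among the 17 was 0.0842 for age, at Rps2-ps13, and 0.111 for 5xFAD, at H2-T10.

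All 10 linked genes that lie off chromosome 17 had their closest protein-coding gene on chromosome 17, at 98.9% to 99.8% identity, and in 9 the match covered at least 80% of the gene. In Gm5819 it covered 65.6%. The parents were Rps2 (3 copies), Atp6v0c, Hmga1, Rnps1, Wtap, Rps18, Unkl and Glo1. Of 763 tested pseudogenes off chromosome 17 with a coding gene of at least 95% identity over at least 80% of their length, 44 (5.77%) had it on chromosome 17. Of these 44, 5 were called (11.4%) and 7 had groups that did not overlap. Of the 719 others none was called by limma, 43 had an unadjusted p under 0.05, and 2 (0.278%) had groups that did not overlap. Chromosome 17 was chosen with the called and linked genes known, so setting the 44 against the 719 cannot test a link to it. Many of the 44 are copies of the same parent, Rps2, and are not separate results. The copy Gm6311 stayed under the filter's 0.5 TPM in all samples without Csf1r-cre, so it was tested only through samples with it. The median log2 fold change of the 44 was 0.052, close to that of all genes.

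The parent genes lay lower or level with Csf1r-cre, and Atp6v0c alone passed the test. Rnps1 was 42.3 ± 5.17 TPM against 54.4 ± 7.20 TPM (log2 fold change -0.36, unadjusted p = 0.0261, adjusted p = 1). Rps18 was 807 ± 179 TPM against 1113 ± 204 TPM (-0.47, unadjusted p = 0.0594, adjusted p = 1). Glo1, which detoxifies methylglyoxal, was 122 ± 14.2 TPM against 134 ± 10.5 TPM, and Wtap 36.0 ± 6.84 TPM against 38.1 ± 3.41 TPM. Unkl was at 7.52 ± 2.11 TPM against 7.92 ± 2.28 TPM. The differences of Wtap and Unkl were -0.099 and -0.074, and turned to 0.026 and 0.083 without 5xFAD Csf1r-cre replicate 3.

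Chromosome 17 as a whole held 877 tested genes, of which 4 were called (0.456%). Within 1 megabase of Atp6v0c there were 70 tested genes, 3 of them called, and 10 (14.3%) with an unadjusted p under 0.05, against 3.3% of all genes. Atp6v0c, on which the window is centred, is 1 of the 3, and without it 2 of 69 were called and 9 had such a p. The 2 were Prss41 and Rnf151, both near the floor without Csf1r-cre. The window was placed with the called genes known, and it also holds Rps2 and Rnps1, parents of called copies. Setting its counts against those of all genes therefore cannot test a link to this region. An unadjusted p under 0.05 was found in 14 of 209 genes within 5 megabases, 34 of 543 within 20 megabases and 15 of 334 beyond. Between 1 and 20 megabases, and beyond, the 1 further call was H2-T10. The median log2 fold change within 1 megabase was 0.039 and that of all genes 0.058. Ndufb10, a subunit of respiratory complex I near Rps2 picked out for its values, was 426 TPM against 530 TPM with groups that did not overlap (log2 fold change -0.32, unadjusted p = 0.0181).

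**Figure D3:**
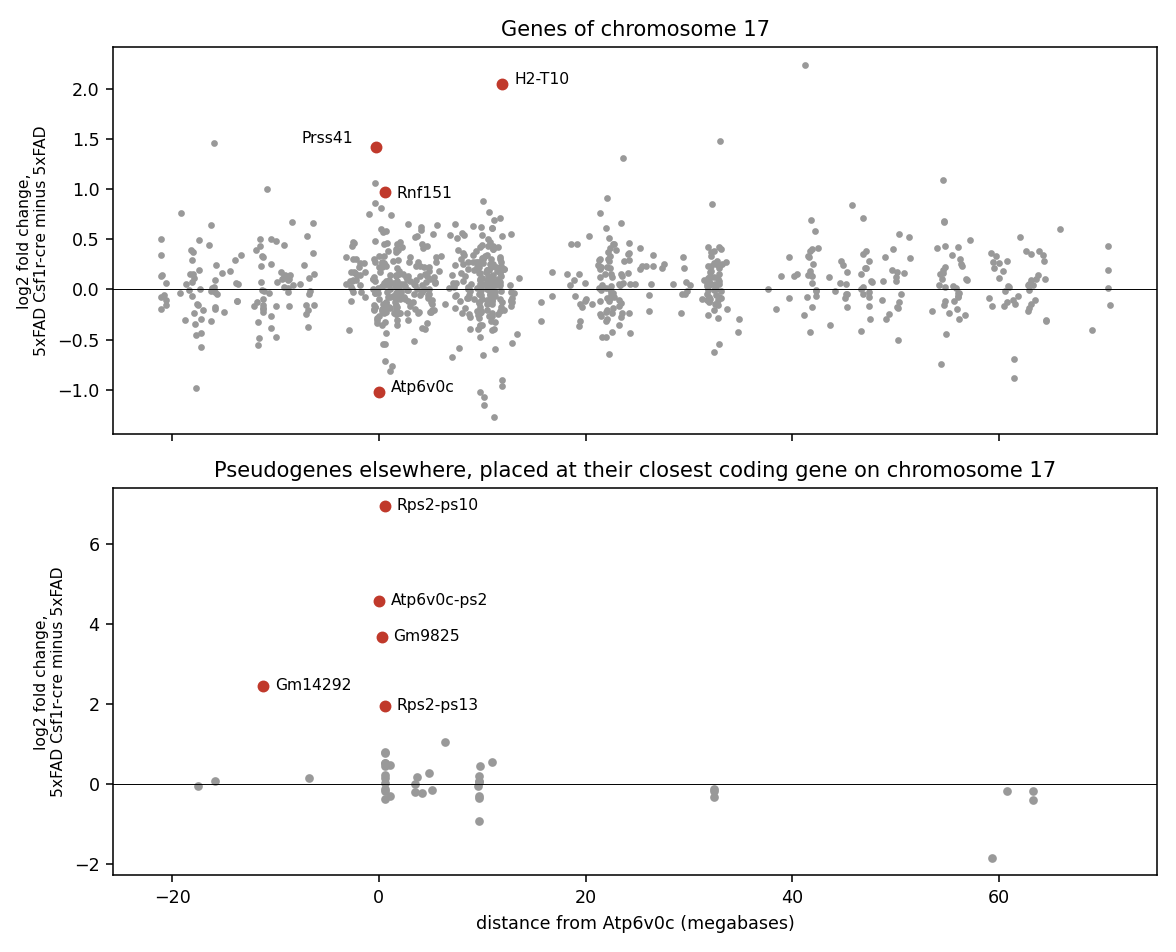
Log2 fold change with Csf1r-cre in 12-month 5xFAD by distance from Atp6v0c in megabases, for the 877 tested genes of chromosome 17 (top) and for the 44 pseudogenes elsewhere whose closest coding gene is on chromosome 17, placed at that gene (bottom). Red points passed the test, 4 in the top panel and 5 in the bottom panel. Position 0 was set at a called gene, and the called points lie near it except H2-T10 and Gm14292.

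Genes of the microglial response to amyloid did not pass the test. Of 37 tested plaque-associated microglia genes 0 were called by limma and 0 had an unadjusted p under 0.05, against 0.059% and 3.3% of all genes. Their differences were above 0 in 32, with a median of 0.25. Trem2 was 59.7, 61.5, 102, 86.3, 107, 116 and 67.6 TPM without and 162, 177, 67.4, 119 and 86.7 TPM with Csf1r-cre, a log2 fold change of 0.47 with a 95% interval of -0.030 to 0.96. Cst7, a cystatin induced around plaques, was 32.5, 37.8, 56.9, 55.1, 57.6, 58.8 and 35.6 TPM without and 106, 141, 21.8, 70.6 and 42.1 TPM with Csf1r-cre. The samples with Csf1r-cre held both the highest and the lowest values. Gpnmb, which marks macrophages rich in lipid, was 17.1 to 44.9 TPM against 72.0, 157, 17.7, 24.01 and 38.6 TPM. Its log2 fold change of 0.76 was 0.31 without 5xFAD Csf1r-cre replicate 2.

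Over the 17 pathway and state lists the spread of the mean level was wider with Csf1r-cre in all 17, and over the 18 marker lists in 10. Oligodendrocyte markers, with SDs of 0.24 with and 0.41 without, went the other way. All lists were read in the same samples and some share genes, so the 17 are not separate results. The mean log2(TPM + 0.5) of the plaque-associated genes was 5.69 ± 0.14 (SD, n = 7) without and 5.95 ± 0.54 (SD, n = 5) with Csf1r-cre. Replicates 1, 2 and 4, at 6.32, 6.61 and 5.95, lay above the 5.52 to 5.91 of the other group, replicate 3, at 5.24, below it, and replicate 5 within it. Replicate 3 with Csf1r-cre had the fewest genes at 1 TPM of the 12 libraries, 13493, close to the 13511 of 5xFAD replicate 4. The part of library quality in its levels was not tested. The reactive astrocyte list was at 3.62 ± 0.27 (SD, n = 7) and 4.15 ± 0.75 (SD, n = 5), with replicate 2 at 5.39 and replicate 3 at 3.41. Leaving out replicate 2 took the median log2 fold change of the plaque-associated list to 0.11, and leaving out replicate 3 took it to 0.45. Replicate numbers given beside the list medians that follow are of 5xFAD Csf1r-cre samples, and the value is the median without that sample. The list counts are to be read beside those of all genes. Of these, 59.4% were above 0, and 3.3% had an unadjusted p under 0.05, 2.27% higher and 1.03% lower. Xist exceeded Ddx3y, a gene of the Y chromosome, in 3 of 5 samples with and 4 of 7 without Csf1r-cre, and the 3 were replicates 1, 2 and 4, which also had the highest Cst7. Without Csf1r-cre, Xist exceeded Ddx3y in replicates 1, 3, 5 and 6. Of these, replicate 1 had the lowest Cst7 of the 7, and replicates 3, 5 and 6 had the 3 highest. The part of sex in these values was not tested.

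**Figure D4:**
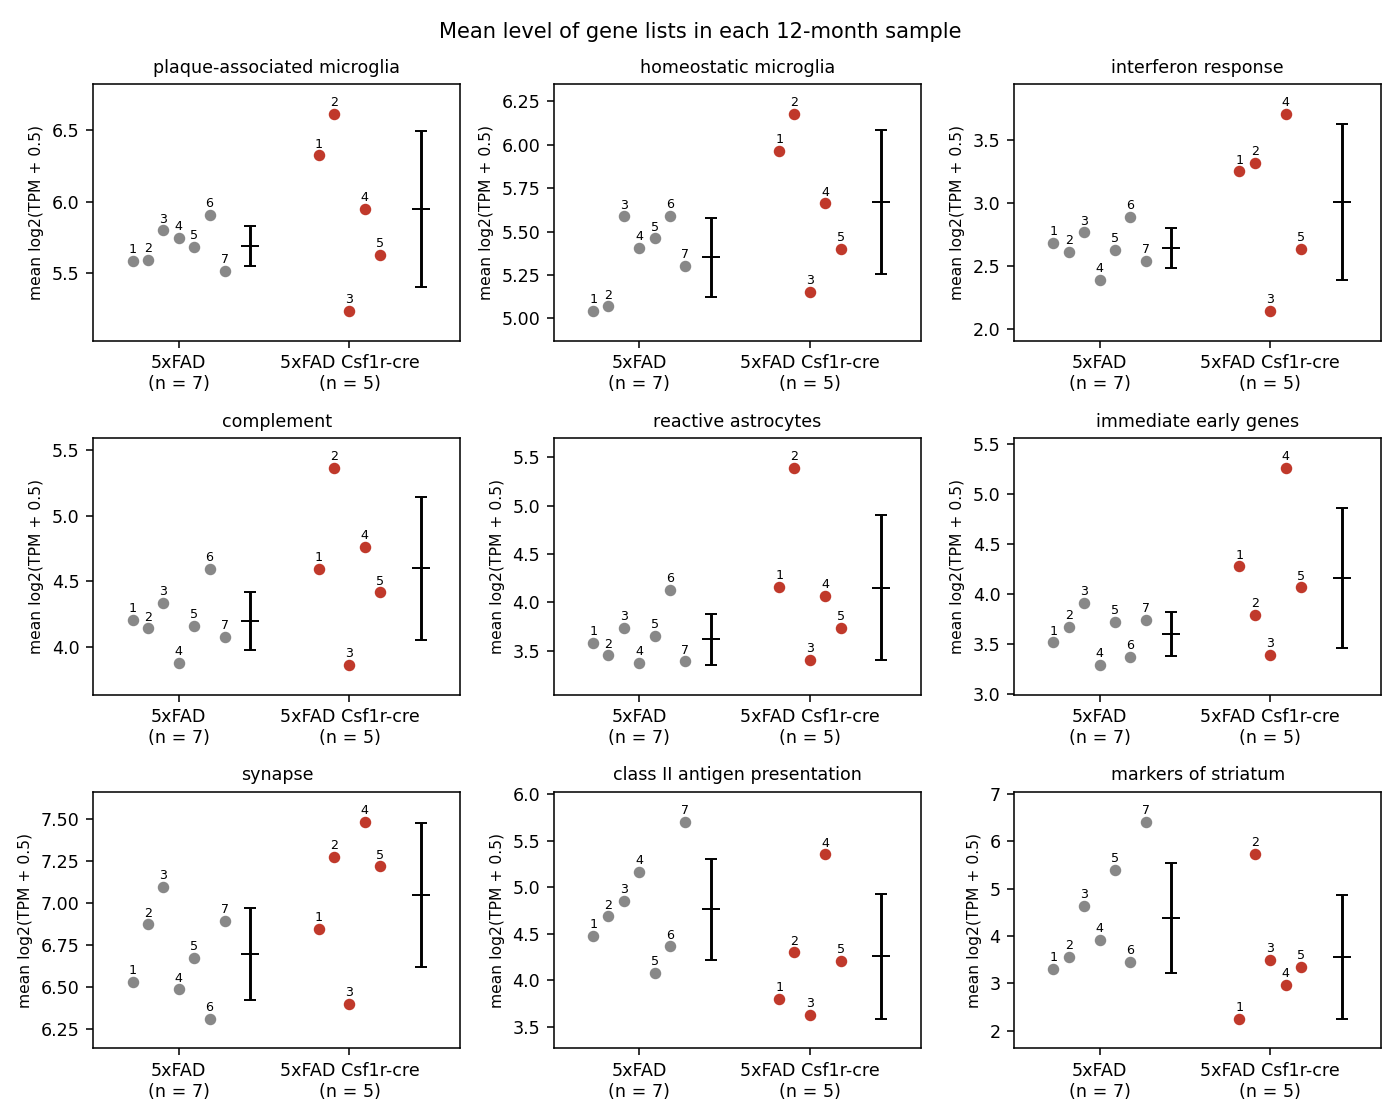
Mean log2(TPM + 0.5) of 9 gene lists in each 12-month sample, grey for 5xFAD and red for 5xFAD Csf1r-cre, with replicate numbers above the points and the mean and SD beside each group. The groups overlap in every panel, and in the plaque-associated panel replicates 1, 2 and 4 with Csf1r-cre lie above all 7 samples without it and replicate 3, at 5.24, below them.

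Homeostatic microglia genes were above 0 in 22 of 23, at a median of 0.32 (0.16 without replicate 2), with 2 at an unadjusted p under 0.05 and none called. Tmem119, a microglial membrane protein, was 39.0 to 84.2 TPM, median 66.9 TPM, against 115, 126, 67.7, 77.3 and 70.8 TPM (log2 fold change 0.53, unadjusted p = 0.0164, adjusted p = 1). Siglech, a lectin, was 19.3 ± 6.27 TPM against 12.98 ± 3.01 TPM. The list of microglial genes at Alzheimer's risk loci was above 0 in 26 of 27, at a median of 0.35 (0.20 without replicate 2), and 4 had an unadjusted p under 0.05. Abi3, an actin regulator, was 3.05 ± 0.624 TPM against 1.68 ± 0.656 TPM (log2 fold change 0.74, unadjusted p = 0.00867), Plcg2, a phospholipase downstream of Trem2, 2.77 ± 1.06 TPM against 1.58 ± 0.276 TPM, and Cd33, an inhibitory lectin, 14.2 ± 5.62 TPM against 9.29 ± 1.81 TPM. The adjusted p was 1 for each.

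Lipid genes gave no call. Lipoprotein particle and receptor genes were above 0 in 18 of 23 at a median of 0.33 (0.15 without replicate 2), with 2 at an unadjusted p under 0.05. These were Msr1, a scavenger receptor, at 1.09 ± 1.32 TPM against 0.349 ± 0.345 TPM, and Apoc4, a neighbour of Apoe, at 0.597 ± 0.465 TPM against 0.316 ± 0.188 TPM, both highest in replicate 2 with Csf1r-cre. Cholesterol efflux and storage genes were above 0 in 16 of 19, at a median of 0.12 (0.030 without replicate 2 and 0.22 without replicate 3). Abca1, the exporter that loads lipid onto apolipoprotein E, was 3.79 to 9.20 TPM against 14.0, 36.7, 4.16, 17.7 and 11.1 TPM (log2 fold change 0.96, unadjusted p = 0.0362, adjusted p = 1), and 0.61 without replicate 2. Cholesterol synthesis genes were below 0 in 16 of 22, at a median of -0.055 (-0.12 without replicate 2 and 0.037 without replicate 3), and Tm7sf2, a sterol reductase, was 22.6 ± 5.05 TPM against 30.0 ± 3.89 TPM (log2 fold change -0.42, unadjusted p = 0.0174, adjusted p = 1). Amyloid precursor processing and clearance genes lay at a median of 0.080 (0.053 without replicate 2 and 0.20 without replicate 3), with 0 of 21 at an unadjusted p under 0.05.

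Immune genes were likewise without a call in the main fit, other than H2-T10, which is in no list. Interferon response genes were above 0 in 29 of 30 at a median of 0.35 (0.17 without replicate 4 and 0.58 without replicate 3), with 3 at an unadjusted p under 0.05. Mx1, an antiviral GTPase, came closest, at 0.0511 to 0.269 TPM against 1.34, 0.866, 0.262, 0.999 and 0.160 TPM (log2 fold change 0.75, limma adjusted p = 0.0868). It passed in 4 alternative fits, among them those without 5xFAD Csf1r-cre replicate 3 (adjusted p = 0.00972) and replicate 5 (0.00155). Ifi204, another gene of this list, passed only without replicate 3 (limma adjusted p = 0.0351). Complement genes were above 0 in 14 of 16 at a median of 0.39 (0.22 without replicate 2 and 0.59 without replicate 3). C3, the central component, was 2.00 to 10.7 TPM against 10.8, 52.3, 5.26, 14.5 and 13.3 TPM (log2 fold change 1.48, unadjusted p = 0.0143, adjusted p = 1). C1qb, a chain of the initiator C1q, was 206 ± 49.3 TPM without and 298 ± 135 TPM with Csf1r-cre.

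Class I antigen presentation genes went both ways, 9 above and 8 below 0 at a median of 0.10 (0.00082 without replicate 2 and 0.17 without replicate 5). Nlrc5, the class I transactivator, was 0.725 ± 0.493 TPM against 0.241 ± 0.130 TPM (unadjusted p = 0.00225, adjusted p = 0.807), and H2-T22 and H2-T23 were the lowest. Nlrc5 passed without 5xFAD Csf1r-cre replicate 3 (limma adjusted p = 0.0341). Class II genes were below 0 in 5 of 6, at a median of -0.50. H2-Eb1, a class II beta chain, was 10.04 ± 8.65 TPM against 20.9 ± 13.03 TPM, with a 95% interval of the log2 difference from -2.33 to 0.032. Chemokines and cytokines were above 0 in 17 of 22 at a median of 0.38 (0.22 without replicate 2). Ccl5, a T cell attractant, was 0.726, 0.688, 1.82, 2.48, 1.72, 1.29 and 2.09 TPM against 4.41, 3.64, 3.53, 2.56 and 3.73 TPM, groups that did not overlap (log2 fold change 1.06, unadjusted p = 0.00688, adjusted p = 1). At 4 months its log2 fold change in 5xFAD was -1.06, and the difference between ages had an unadjusted p of 0.000531 and an adjusted p of 1. Of 36 lysosomal genes 33 were above 0, at a median of 0.13 (0.047 without replicate 2 and 0.23 without replicate 3), and the 1 called was Atp6v0c, which fell. Cd68, a lysosomal protein of phagocytes, was 103 ± 57.7 TPM against 64.4 ± 16.6 TPM.

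Reactive astrocyte genes were above 0 in 25 of 26, at a median of 0.52 (0.20 without replicate 2), and 4 had an unadjusted p under 0.05 (2.27% of all genes did in this direction), with none called. Lcn2, a secreted siderophore-binding protein, was 1.08 to 6.54 TPM against 18.1, 133, 2.21, 7.40 and 2.98 TPM (log2 fold change 1.82, unadjusted p = 0.00367, adjusted p = 1), and its log2 fold change was 0.93 without replicate 2. S1pr3, a receptor for sphingosine 1-phosphate, was 5.11 ± 2.15 TPM without and 13.3 ± 13.3 TPM with Csf1r-cre, and Osmr, the oncostatin M receptor, 3.67 ± 1.11 TPM and 9.005 ± 6.404 TPM. Gfap, the astrocyte filament, was 703 to 2281 TPM against 1833, 3276, 851, 1841 and 1414 TPM (log2 fold change 0.55, 95% interval -0.21 to 1.32). Serpina3n, a protease inhibitor, was 123 ± 69.2 TPM without and 244 ± 260 TPM with Csf1r-cre. Markers of astrocytes as a cell type lay at a median of 0.066, and between -0.051 and 0.21 leaving out 1 sample.

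All 24 immediate early genes, which neurons switch on within minutes of activity, were above 0, at a median of 0.61, and 4 had an unadjusted p under 0.05. Arc, a synaptic plasticity gene, was 5.59 to 21.1 TPM against 46.8, 18.2, 11.4, 105 and 21.2 TPM, and its log2 fold change of 1.38 was 0.93 without replicate 4. Dusp5, a phosphatase of ERK, was 6.19, 5.37, 15.7, 7.00, 5.35, 5.24 and 5.00 TPM against 16.1, 11.1, 18.05, 19.7 and 14.3 TPM. One sample without Csf1r-cre, replicate 3, lay among those with it (log2 fold change 1.18, unadjusted p = 0.00172, adjusted p = 0.776). Without replicate 4 the median of the list was 0.23. Synapse genes were above 0 in 23 of 27, at a median of 0.32 (0.20 without replicate 4 and 0.50 without replicate 3), with 0 at an unadjusted p under 0.05. Camk2a, the kinase subunit of excitatory synapses, was 544 to 1421 TPM against 1444, 1550, 1199, 1698 and 1827 TPM (log2 fold change 0.72, unadjusted p = 0.0602).

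Markers of neighbouring tissue and of hippocampal neurons were also measured. Markers of striatum, which the dissection set apart, lay at a median of -0.93 (-1.46 without replicate 2 and -0.59 without replicate 1), with 1 of 14 above 0, and their summed level was 204 to 1685 TPM with and 315 to 2681 TPM without Csf1r-cre. Markers of choroid plexus and ependyma lay at -0.72 (-1.23 without replicate 2 and -0.33 without replicate 1), with 0 of 12 above 0, and summed to 43.3 to 1385 TPM with and 116 to 2736 TPM without. Markers of dentate granule cells were above 0 in all 11, at a median of 0.45 (0.15 without replicate 5), and summed to 129 to 365 TPM with and 79.3 to 320 TPM without, and those of hippocampal CA pyramidal cells lay at 0.29 (0.53 without replicate 3, and 0.19 without 5xFAD replicate 5). No gene of these lists was called by limma, and 1, the CA pyramidal marker Csf2rb2, had an unadjusted p under 0.05. Their part in the differences above was not tested.

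The 14 remaining lists lay between a median of -0.21 and 0.32 and gave no call, and leaving out 1 sample changed the sign of the median in 11 of them. These were markers of excitatory neurons (0.32), interneurons (0.12), oligodendrocytes (0.084), their precursors (0.16), endothelium (0.088), mural cells and fibroblasts (0.037), border macrophages (-0.099), monocytes and neutrophils (-0.067), T cells (-0.031), B cells (-0.19), blood (-0.21), thalamus (-0.098) and cortex (0.11), and the mitochondrial transcripts (-0.087). Markers of monocytes and neutrophils summed to at most 20.2 TPM and of T cells to at most 32.5 TPM in any sample. Ly6g, a neutrophil marker, was at 0 in all samples with Csf1r-cre and at most 0.259 TPM without, and was too low to be tested. Among genes outside the lists that came closest to a fall, Tmem35a, a chaperone of acetylcholine receptors, was 57.8 ± 12.5 TPM against 74.2 ± 7.43 TPM (log2 fold change -0.38, unadjusted p = 0.00233, adjusted p = 0.808). Dynlt1b, a dynein light chain on chromosome 17, was 0.664 ± 0.454 TPM against 1.70 ± 0.362 TPM and its log2 difference was -0.98 (adjusted p = 0.892). Pomc, a hormone precursor, was at 3.45 ± 0.662 TPM with and 18.8 ± 29.3 TPM without Csf1r-cre, where replicate 3 reached 82.8 TPM, and its log2 difference of -1.24 was -0.71 without that sample. The mitochondrial ribosomal genes Mrps11 and Mrps35, and Arxes2, Ctxn2 and Eef1akmt1, lay lower by log2 differences of -0.31 to -0.59, with an adjusted p of 1 each.

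**Figure D5:**
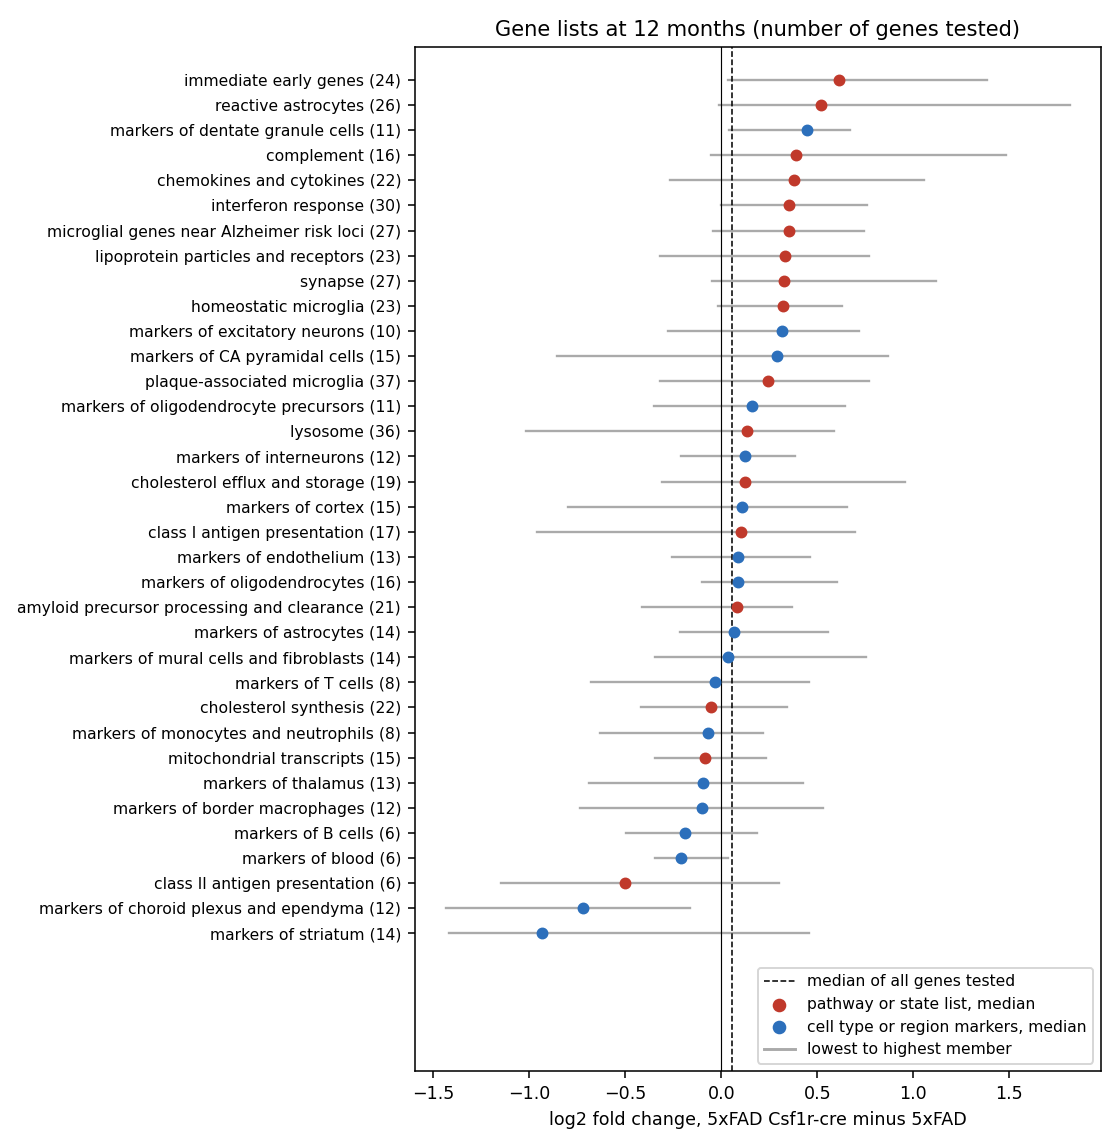
Median log2 fold change (points) and lowest to highest member (lines) of each gene list in 12-month 5xFAD mice with against without Csf1r-cre, with the number of genes tested in parentheses. The dashed line is the median of all genes, 0.058, and list medians run from -0.93 for markers of striatum to 0.61 for immediate early genes.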

How the data were processed

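The authors deposited 1 table of TPM values for 54532 genes, with mm10 coordinates. The tools named in the submitters' processing notes are featureCounts, STAR, limma and edgeR. Their versions and settings, strand use and the treatment of reads mapping to several places were not given. TPM keep no total depth, so no count test was run. Groups follow the sample titles. The analysis used log2(TPM + 0.5) of 18659 genes, those with at least 0.5 TPM in at least 3 samples, with 1 mean per group over all 45 samples (limma 3.58.1, R 4.3.3, eBayes with trend, two-sided, Benjamini-Hochberg over all genes). Apoe was compared by an exact permutation test. Csf1r-cre linked genes were chosen on the 33 samples outside the comparison. Closest genes were found with BLAST+ 2.17.0 against GENCODE transcripts of the same build. Pseudogenes were counted at 95% identity or more over at least 80% of the gene, and linked genes by their best match of any length. The code was tested on simulated data. There, 44 of 100 genes changed by a log2 of 1 were called, and 86 of 100 changed by 2. A gene that was not called may thus still differ.

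The members, lists and tests were chosen with earlier results of these data known. The text names Apoe, App and Thy1, every called gene, the largest linked genes, the smallest p among lower genes, and, from each list, at most 3 members by smallest p. Parents of copies, H2-T10's neighbours outside the lists, the other linked genes, Cst7, Gfap, Serpina3n and Ndufb10 were named after their values were seen. Alternatives covered the pseudocount, filter, scaling, samples fitted, array weights, a replicate block and leaving out each sample. A further gene of the naming rule is not reported here.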

Additional observations from a re-analysis of the deposited data

Results flagged for a closer look

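In 6 of 206 groups of values the highest or lowest sample stood apart from the rest of its group, where chance gives about 1 in 20. Without Csf1r-cre, replicate 6 had Atp6v0c-ps2 at 59.92 TPM, with the next sample at 19.59 TPM, and Gm9825 at 1.002 TPM, with the next at 0.5165 TPM. Replicate 5 had Rnf151 at 0.04817 TPM and the other 6 were at 0. Replicate 2 had the lowest Ifi204, an interferon-induced DNA sensor, at 0.4176 TPM, and replicate 3 the highest Dusp5, at 15.69 TPM. With Csf1r-cre, replicate 5 had Gm13443 at 5.271 TPM, with the next at 3.563 TPM.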

How the results depend on the processing

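The 11 calls were recomputed in 24 alternative fits. Atp6v0c, Atp6v0c-ps2, Rps2-ps10, Rps2-ps13, Hmga1b, Gm9825, Gm14292 and H2-T10 passed in each, Prss41 in all but the fits on the 12 samples (adjusted p = 0.0858) and on the 22 samples of 12 months (0.0684), Gm11361 in 20 of 25 and Rnf151 in 10 of 25. Genes higher numbered 20 with no filter, 22 with array weights, and 8 to 18 leaving out 1 sample, the highest without 5xFAD Csf1r-cre replicate 3. Genes lower numbered 2 on the 12 samples, on the 22 samples and with array weights, and 1 leaving out any sample. Genes whose difference depended on 5xFAD numbered 2 with a pseudocount of 1, 1 with no filter, 1 with median-of-ratios scaling, 4 with array weights and 0 to 5 leaving out 1 sample, the 5 without 5xFAD Csf1r-cre replicate 3; genes whose difference depended on age numbered 2 with no filter and 0 in every fit that left out 1 sample. The Apoe difference was -0.0654 with median-of-ratios scaling, -0.0098 without 5xFAD replicate 6 and 5xFAD Csf1r-cre replicate 2 together (chosen after seeing the data), and -0.0557 to 0.0792 leaving out 1 sample. Unkl turned to 0.0933 with array weights, 0.0341 without 5xFAD replicate 2 and 0.0828 without 5xFAD Csf1r-cre replicate 3, and Wtap to 0.0258 without the last. Leaving out 1 sample gave Unkl values of -0.194 to 0.0828 and Wtap values of -0.159 to 0.0258. The cause of each change was not tested. Same-numbered samples of the groups deviated together at correlations of -0.42 to 0.068, 0 of 5 over 0.1, so the numbers are only names; with the replicate block 9 genes were higher and 1 lower, all 10 among the 11, 0 genes depended on 5xFAD or age, and Apoe differed by 0.0517.

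Limits: total reads were not derived, genes that did not reach 0.5 TPM in at least 3 samples were not tested, and copies above 98% identity can share reads. The groups hold 5 and 7 samples.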
